A study of Arabidopsis thaliana with 6 samples.

Results

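Transcript levels of 10 starch synthesis genes were described in developing seeds of Arabidopsis thaliana. The genes were chosen by locus identifier, by their place in the pathway, with earlier results of these data known. They were the small subunit APS1 and the large subunits APL1, APL2 and APL3 of ADP-glucose pyrophosphorylase, the granule-bound starch synthase GBSS1, the soluble starch synthases SS1, SS2 and SS3, and the branching enzymes SBE2.1 and SBE2.2. All 10 were among the 16967 genes of the deposited table. The mutant tt7-7 had 3 samples and wild type Col-0 had 3 samples, with Col-0 given as the accession of both. Seeds of both genotypes were taken 8 days after pollination. The tt7-7 line carries a mutation in TT7 (AT5G07990), which encodes flavonoid 3'-hydroxylase of the flavonoid pathway. The lesion and the number of plants behind a sample are details not given in the sources used here, and p-values therefore measure the spread between these samples, which may be technical.

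Starch is made inside plastids from glucose 1-phosphate. ADP-glucose pyrophosphorylase turns it into ADP-glucose, the sugar donor for starch, and this step controls much of the flux into the polymer. The small subunit of the enzyme is catalytic, while the large subunits mainly set how it responds to metabolites. Starch synthases add the glucose of ADP-glucose to growing chains, and branching enzymes cut and rejoin chains to form amylopectin. The granule-bound synthase makes amylose, which has few branches. Arabidopsis seeds hold starch for a time during development and store mainly oil and protein at maturity.

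Library totals ranged from 15577456 to 20300393 reads in tt7-7 and from 13677094 to 20547689 reads in Col-0. The transcript of TT7 had 86.0, 97.4 and 103 RPKM in tt7-7 replicates 1 to 3, against 499, 272 and 239.9 RPKM in Col-0 replicates 1 to 3, so it was lower but still present in the mutant (log2 fold change -1.74, limma adjusted p = 0.000527). RPKM are reads scaled by transcript length and library size, so levels of different genes can be set side by side. Each log2 fold change is the mean of log2(RPKM + 1) in tt7-7 minus that in Col-0, a scale that understates the change of low genes. A gene is called higher or lower where limma's adjusted p over 16663 genes lay under 0.05. The median log2 fold change of all those genes was 0.44, against -0.03 under median-ratio scaling, which sets the typical gene equal between samples. Samples also differed along transcript length, and with that trend removed from each sample the median was -0.01.

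Marker genes of some seed cell types differed between genotypes. Of all tested genes, 51.1% were called higher and 8.47% lower. Of 13 embryo maturation genes, 9 were lower and 3 higher. The 3 higher genes were FUS3, LEC2 and ABI3, at log2 fold changes of 0.82, 0.95 and 0.74. The sum over the 13 genes was 4155, 1079 and 6209 RPKM in tt7-7 replicates 1 to 3. In Col-0 replicates 1 to 3 it was 20045, 41668 and 127509 RPKM, a wide spread within wild type. All 8 green tissue genes were lower, with sums between 9590.3 and 12268 RPKM in tt7-7 and between 23747 and 26837 RPKM in Col-0. Of 6 genes of the endothelium, the pigment-forming layer of the seed coat, 5 were higher, with sums between 1330.3 and 1599.9 RPKM in tt7-7 and between 480.1 and 816.5 RPKM in Col-0. The 5 were BAN, TT16, AHA10, TT12 and LDOX. In a mutant of the flavonoid pathway, whether these genes measure the amount of that layer was not tested. Seed coat epidermis genes, 2 of 8 higher, summed to between 1599.9 and 1969 RPKM in tt7-7 and to between 1536 and 2251 RPKM in Col-0. Endosperm genes, 2 of 4 higher, summed to between 96.1 and 103 RPKM in tt7-7 and to between 61.7 and 95.5 RPKM in Col-0. No marker was at 0 in either genotype. The part of these differences in the results on starch genes was not tested. In whole seeds, a different number of cells of a type and a different amount of RNA per cell cannot be told apart.

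In tt7-7 seeds 6 of the 10 starch synthesis genes were called higher than in Col-0, and none was called lower. The 6 were the large subunits APL2 and APL3, the soluble synthases SS1 and SS3 and both branching enzymes. Across all tested genes 51.1% were called higher and 8.47% lower, so the count of higher members stood near the background. At an unadjusted p under 0.05 in the same limma fit, 8 members were higher and 0 lower, beside 54.6% and 9.83% of all tested genes. Limma voom on the recovered reads called 7 members higher and 0 lower, beside 51.3% and 7.92%. The median log2 fold change over the 10 members was 0.76, with a range of -0.26 to 1.60, beside the median of 0.44 over all tested genes. In 8 members every tt7-7 value lay above every Col-0 value, which held for 56.2% of all tested genes, and in 0 members the reverse, which held for 9.97%.

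Under median-ratio scaling 4 members, APL3, SS3, SBE2.1 and SBE2.2, were called higher, beside 26.3% of all genes, and APL1 was called lower, beside 27.6%. With the length trend removed, APL3, SS3 and SBE2.1 were called higher, beside 22.5% of all genes, and APL1 and SS2 were called lower, beside 23.1%. Removing the GC trend in the same way left the 4 genes higher that median-ratio scaling did, beside 26.5% of all genes, and APL1 lower, beside 26.3%. APL3, SS3 and SBE2.1 were thus called higher under each of those scalings and in each of the 19 alternatives that were run. How many of all tested genes passed every alternative was not counted. The summed level of the 10 genes was 641, 597 and 539.7 RPKM in tt7-7 replicates 1 to 3, against 432, 377 and 336 RPKM in Col-0 replicates 1 to 3. These sums did not overlap, with a log2 difference of 0.64. After median-ratio scaling, applied to the sums after seeing the data, they were 543, 497 and 446 in tt7-7 and 466, 453 and 446 in Col-0. The scaled sums overlapped, with tt7-7 replicate 3 the lowest of the 6 samples and a log2 difference of 0.12.

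**Figure D1:**
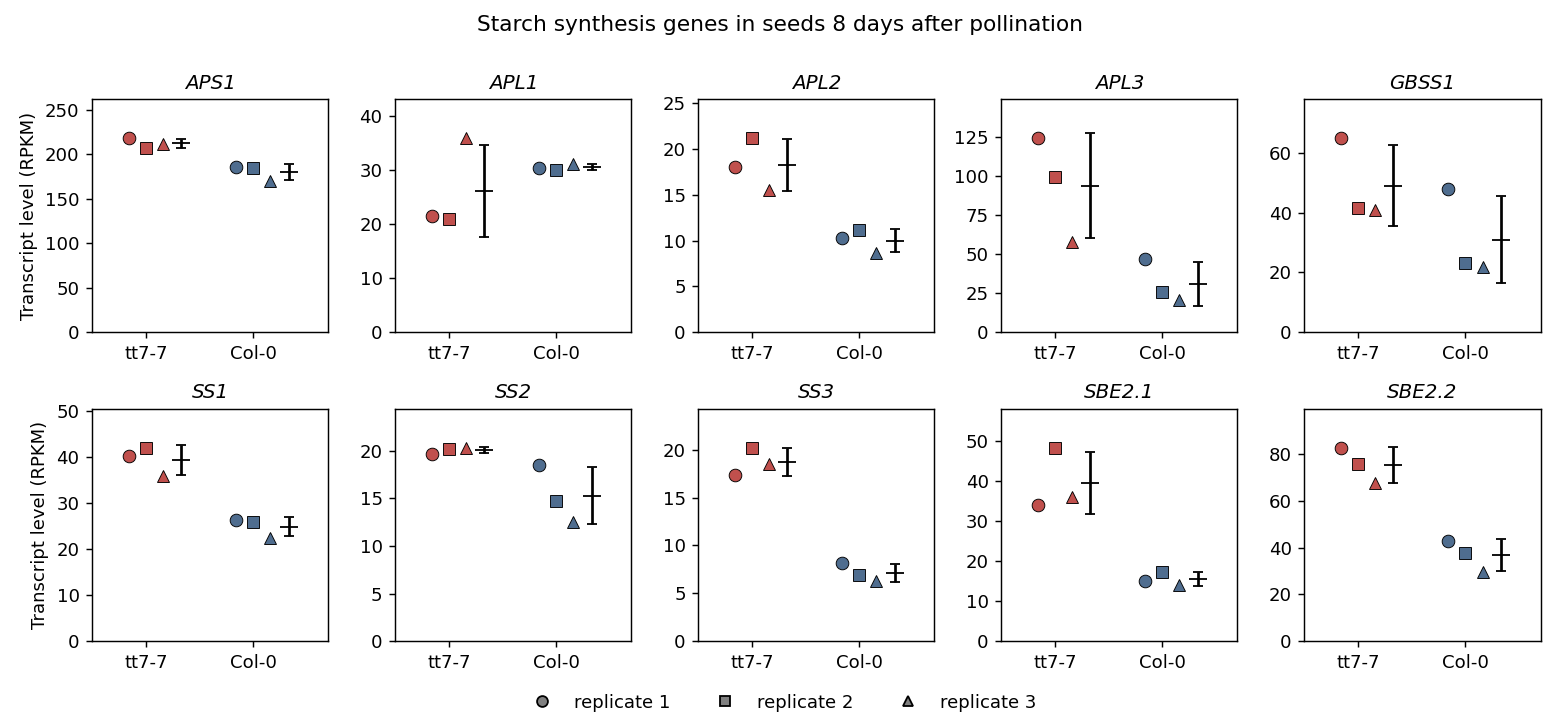
Transcript level in RPKM of each of the 10 genes in every sample, with tt7-7 left of Col-0, symbols for replicates 1 to 3, and the mean with its SD beside them (n = 3 each); each panel has its own axis, which starts at 0. The groups overlap in APL1 and GBSS1, and in the other 8 panels all tt7-7 points lie above all Col-0 points.

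The order of the mean deposited RPKM, with no trend along transcript length removed, differed between genotypes. In tt7-7 the means ran from APS1 at 212 RPKM through APL3 at 93.9, SBE2.2 at 75.3, GBSS1 at 49.1, SBE2.1 at 39.6, SS1 at 39.4, APL1 at 26.0, SS2 at 20.045 and SS3 at 18.7 to APL2 at 18.3 RPKM. The sample ranges of neighbours overlapped for APL3 and SBE2.2, for GBSS1, SBE2.1 and SS1, and for SS2, SS3 and APL2. In Col-0 the order was APS1 at 180.05 RPKM, SBE2.2 at 36.7, GBSS1 at 30.9, APL3 at 30.8, APL1 at 30.5, SS1 at 24.9, SBE2.1 at 15.5, SS2 at 15.3, APL2 at 9.99 and SS3 at 7.12 RPKM. Neighbours from SBE2.2 to APL1 overlapped there, as did SBE2.1 and SS2. APS1 was the highest member in both genotypes, and APL3 came next in tt7-7. In Col-0 the mean of APL3 stood below that of SBE2.2 and was nearly equal to that of GBSS1.

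APS1 (AT5G48300) encodes the catalytic small subunit and lies at chr5:19570238-19572804 on the plus strand of TAIR10.1, with 8 exons. Its level was 218, 207 and 211 RPKM in tt7-7 replicates 1 to 3, against 186, 184 and 169.5 RPKM in Col-0 replicates 1 to 3. The tt7-7 samples lay close together and all above Col-0. The log2 fold change of 0.24 ± 0.13 (SE) missed the threshold (limma adjusted p = 0.152), its 95% interval ran from -0.06 to 0.54, and it lay 0.20 below the median of all genes. The value was -0.28 under median-ratio scaling, but quantile normalization gave 0.41 and a call of higher (limma adjusted p = 0.0152).

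APL1 (AT5G19220, chr5:6463824-6466831, minus strand, 15 exons) encodes the main large subunit of leaves. It had 21.3, 20.9 and 35.8 RPKM in tt7-7 replicates 1 to 3, against 30.3, 29.9 and 31.1 RPKM in Col-0 replicates 1 to 3. Replicates 1 and 2 of tt7-7 lay below every Col-0 sample and replicate 3 lay above every one, so the groups overlapped. The difference on the log2 scale was -0.26 ± 0.20 (SE), with a 95% interval of -0.71 to 0.19 and a limma adjusted p of 0.278. Without tt7-7 replicate 3 it was -0.51 and past the threshold (limma adjusted p = 0.0155), while without tt7-7 replicate 1 or 2 it was -0.15 or -0.13 (adjusted p = 0.592 and 0.631). APL1 was called lower under median-ratio scaling, at -0.77 (limma adjusted p = 0.0165). An annotated antisense RNA, AT5G19221, overlaps 2386 bases of the gene, introns included, and was not among the genes of the deposited table. Of the 1683 windows of 50 bases in the APL1 transcript, 211 (12.5%) were also found in that RNA. Use of strand in the counting is not given in the sources used here, so reads of this shared part cannot be told apart.

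APL2 (AT1G27680, chr1:9631190-9634597, plus strand, 12 exons) and APL3 (AT4G39210, chr4:18259547-18263468, plus strand, 15 exons) encode the large subunits known mainly from non-green tissues. APL2 had 18.1, 21.2 and 15.5 RPKM in tt7-7 replicates 1 to 3, against 10.3, 11.1 and 8.59 RPKM in Col-0 replicates 1 to 3. All tt7-7 samples lay above all Col-0 samples. APL2 averaged 18.3 ± 2.84 RPKM in tt7-7 and 9.99 ± 1.28 RPKM in Col-0 (SD, n = 3 each), a log2 fold change of 0.81 ± 0.16 (SE, limma adjusted p = 0.00213). The call was lost under median-ratio scaling and quantile normalization, both at 0.32 (limma adjusted p = 0.0823 and 0.0951). It was also lost with the length or the GC trend removed, at 0.27 and 0.28 (limma adjusted p = 0.138 and 0.114).

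APL3 showed the highest log2 fold change of the 10 genes. It had 124, 99.6 and 57.9 RPKM in tt7-7 replicates 1 to 3, against 46.9, 25.4 and 20.2 RPKM in Col-0 replicates 1 to 3. The groups did not overlap, although samples of either genotype spread widely, with replicate 1 the highest in both. The means were 93.9 ± 33.6 RPKM in tt7-7 and 30.8 ± 14.2 RPKM in Col-0 (SD, n = 3 each), a ratio of 3.05. Its log2 fold change was 1.60 ± 0.34 (SE), with a 95% interval of 0.83 to 2.36 and a limma adjusted p of 0.00321, and it lay 1.16 above the median of all genes. Over the 19 alternatives it ranged from 1.09 to 1.94, with adjusted p between 6.64e-05 and 0.0326.

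Because a ratio within a sample does not depend on the scaling between samples, the large subunits were also set against each other. The APL3 to APL1 ratio was 5.82, 4.77 and 1.62 in tt7-7 replicates 1 to 3, against 1.55, 0.849 and 0.649 in Col-0 replicates 1 to 3. Every tt7-7 ratio exceeded every Col-0 ratio, but tt7-7 replicate 3 lay close to Col-0 replicate 1. The mean log2 difference was 1.91, with an exact two-sided permutation p of 0.1, the smallest that 3 samples against 3 can give. The APL2 to APL1 ratio was 0.847, 1.02 and 0.433 in tt7-7, against 0.338, 0.371 and 0.276 in Col-0, a log2 difference of 1.14 with the same exact permutation p of 0.1. These ratios did not overlap between genotypes either.

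As a share of the summed RPKM of the 3 large subunits, APL1 took 13.04%, 14.7% and 32.8% in tt7-7 replicates 1 to 3 and 34.7%, 45.0% and 51.9% in Col-0 replicates 1 to 3. APL3 took 75.9%, 70.3% and 53.0% in tt7-7 and 53.6%, 38.2% and 33.7% in Col-0. The APL1 shares did not overlap, and the APL3 shares overlapped by a small margin, at tt7-7 replicate 3 and Col-0 replicate 1. APL2 kept a similar part, with 13.4% ± 2.07 in tt7-7 and 14.3% ± 2.501 in Col-0 (SD, n = 3 each), an exact two-sided permutation p of 0.6. The summed large subunits relative to APS1 came to 0.750, 0.683 and 0.517 in tt7-7 replicates 1 to 3, against 0.470, 0.360 and 0.353 in Col-0 replicates 1 to 3. That ratio was higher in each tt7-7 sample than in any Col-0 sample (log2 difference 0.72, exact two-sided permutation p = 0.1).

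**Figure D2:**
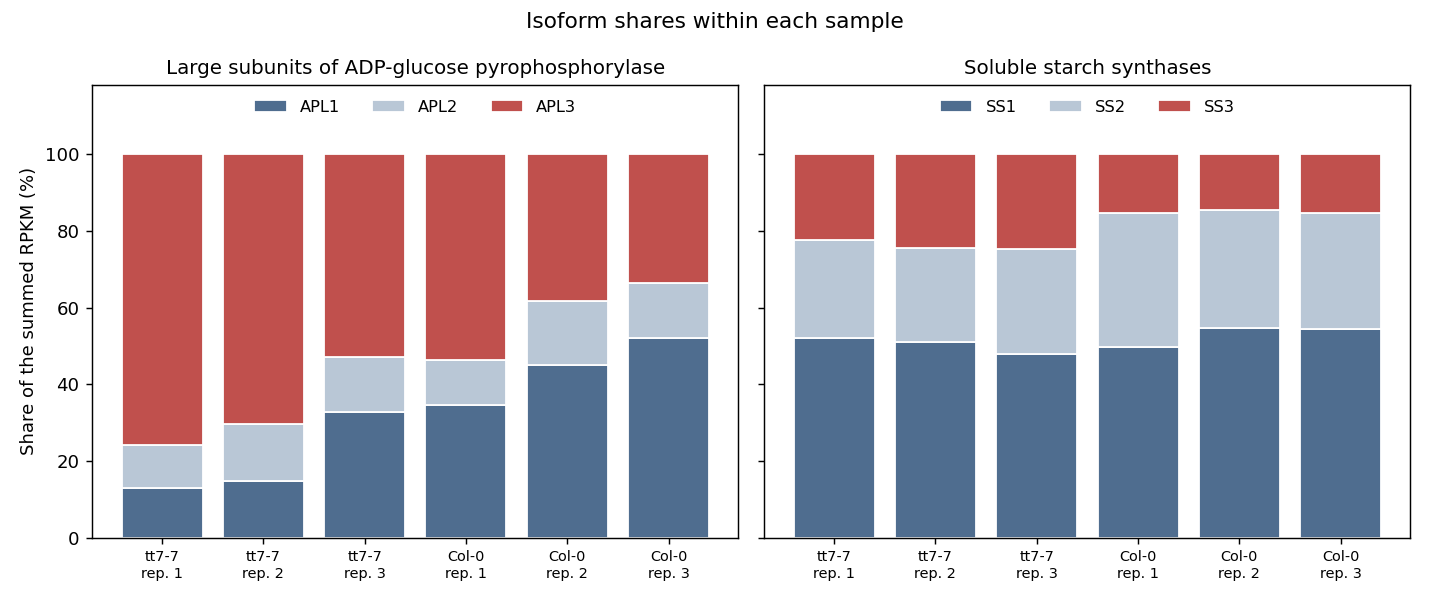
Share in percent of the summed RPKM taken by APL1, APL2 and APL3 (left) and by SS1, SS2 and SS3 (right), as 1 stacked bar per sample, with tt7-7 left of Col-0. APL1 takes 13.04% to 32.8% in tt7-7 and 34.7% to 51.9% in Col-0, and SS3 takes 22.4% to 24.8% in tt7-7 and 14.5% to 15.4% in Col-0.

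GBSS1 (AT1G32900, chr1:11920390-11923866, minus strand, 13 exons) had 65.0, 41.5 and 40.9 RPKM in tt7-7 replicates 1 to 3, against 47.9, 23.1 and 21.8 RPKM in Col-0 replicates 1 to 3. Replicate 1 was the highest in both genotypes, and Col-0 replicate 1 lay above tt7-7 replicates 2 and 3. The log2 fold change was 0.71 ± 0.30 (SE), with a 95% interval of 0.04 to 1.38, and missed the threshold (limma adjusted p = 0.0653). Without Col-0 replicate 1 it was 1.06 and past the threshold (limma adjusted p = 0.00347). It ran from 0.49 to 0.82 without each of the other samples, with no call, and was 0.12 with the length trend removed (limma adjusted p = 0.741). Relative to the summed soluble synthases, GBSS1 stood at 0.842, 0.503 and 0.547 in tt7-7 and at 0.904, 0.485 and 0.528 in Col-0. These ratios overlapped, with a log2 difference of 0.00 and an exact two-sided permutation p of 1.0, and leaving out a sample moved the difference between -0.23 and 0.28.

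Among the soluble synthases, SS1 (AT5G24300, chr5:8266566-8271205, plus strand, 15 exons) mainly extends short chains of amylopectin. Its level was 40.2, 42.1 and 35.9 RPKM in tt7-7 replicates 1 to 3, against 26.3, 26.0 and 22.5 RPKM in Col-0 replicates 1 to 3. The groups were well apart. SS1 had a log2 fold change of 0.64 ± 0.13 (SE, limma adjusted p = 0.00282), 0.20 above the median of all genes. The call was lost with median-ratio scaling, at 0.14 (limma adjusted p = 0.299), and with the GC trend removed, at 0.19 (limma adjusted p = 0.131). With the length trend removed the value was negative, at -0.07 (limma adjusted p = 0.599).

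SS2 (AT3G01180, chr3:62245-66111, minus strand, 8 exons) extends chains of intermediate length. It had 19.7, 20.1 and 20.3 RPKM in tt7-7 replicates 1 to 3, against 18.5, 14.8 and 12.5 RPKM in Col-0 replicates 1 to 3. The tt7-7 samples were nearly equal, and Col-0 replicate 1 came close to them without overlap. A log2 fold change of 0.39 ± 0.15 (SE) missed the threshold (limma adjusted p = 0.0546), while without Col-0 replicate 1 it was 0.53 and past it (limma adjusted p = 0.00938). No other left-out sample gave a call, and without Col-0 replicate 3 the value was 0.26 (limma adjusted p = 0.135). Its direction turned under median-ratio scaling, at -0.10, and with the length trend removed SS2 was called lower, at -0.43 (limma adjusted p = 0.00958).

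SS3 (AT1G11720, chr1:3951366-3957044, plus strand, 16 exons) extends long chains and has the longest transcript of the 10 genes, with 3720 bases. It had 17.3, 20.2 and 18.6 RPKM in tt7-7 replicates 1 to 3, against 8.14, 6.92 and 6.31 RPKM in Col-0 replicates 1 to 3. Every tt7-7 sample lay far above the highest Col-0 sample. The means were 18.7 ± 1.46 RPKM in tt7-7 and 7.12 ± 0.929 RPKM in Col-0 (SD, n = 3 each), a ratio of 2.62. On the log2 scale the difference was 1.28 ± 0.14 (SE, limma adjusted p = 0.000153), 0.84 above the median of all genes. It was 0.81 under median-ratio scaling (limma adjusted p = 0.000881) and 0.27 with the length trend removed (limma adjusted p = 0.0355). An antisense RNA, AT1G04873, overlaps 240 bases of SS3.

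Within each sample, SS3 took 22.4%, 24.5% and 24.8% of the summed RPKM of SS1, SS2 and SS3 in tt7-7 replicates 1 to 3, against 15.4%, 14.5% and 15.3% in Col-0 replicates 1 to 3. SS2 took 25.5%, 24.4% and 27.2% in tt7-7, against 35.0%, 30.9% and 30.4% in Col-0. The shares of SS3 were higher and those of SS2 lower in every tt7-7 sample than in any Col-0 sample, each with an exact two-sided permutation p of 0.1. SS1 took 52.1%, 51.1% and 48.0% in tt7-7 and 49.7%, 54.5% and 54.4% in Col-0, with overlapping groups (exact two-sided permutation p = 0.3). The log2 difference of the SS3 share was 0.67, and 0.40 with the length trend removed.

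The branching enzymes SBE2.1 (AT2G36390, chr2:15264211-15270092, plus strand, 18 exons) and SBE2.2 (AT5G03650, chr5:931762-937702, plus strand, 22 exons) are the class II enzymes of Arabidopsis, with overlapping roles in leaves. SBE2.1 had 34.2, 48.4 and 36.1 RPKM in tt7-7 replicates 1 to 3, against 15.0, 17.4 and 14.1 RPKM in Col-0 replicates 1 to 3. In both genotypes replicate 2 was the highest, and the groups were far apart. The means were 39.6 ± 7.76 RPKM in tt7-7 and 15.5 ± 1.73 RPKM in Col-0 (SD, n = 3 each), a ratio of 2.55. The log2 fold change was 1.29 ± 0.16 (SE, limma adjusted p = 0.000266), 0.85 above the median of all genes, and it ranged from 0.54 to 1.38 over the alternatives.

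SBE2.2 had 82.7, 75.6 and 67.6 RPKM in tt7-7 replicates 1 to 3, against 42.8, 37.9 and 29.4 RPKM in Col-0 replicates 1 to 3. The groups did not overlap. SBE2.2 had a log2 fold change of 1.03 ± 0.17 (SE, limma adjusted p = 0.000779), 0.59 above the median of all genes, and it fell short of the threshold with the length trend removed, at 0.27 (limma adjusted p = 0.0927). The SBE2.2 to SBE2.1 ratio was 2.42, 1.56 and 1.87 in tt7-7 and 2.86, 2.17 and 2.09 in Col-0, with overlap between genotypes (exact two-sided permutation p = 0.3). The longest identical run of their transcripts was 20 bases, at positions 1498 to 1517 of the SBE2.1 transcript, and no window of 50 bases was shared between any pair of the 10 genes.

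The summed branching enzymes relative to the summed soluble synthases came to 1.51, 1.504 and 1.39 in tt7-7 replicates 1 to 3, against 1.09, 1.16 and 1.05 in Col-0 replicates 1 to 3. This ratio varied little within a genotype and did not overlap between them. Its means were 1.47 ± 0.0712 in tt7-7 and 1.101 ± 0.0540 in Col-0 (SD, n = 3 each), with a log2 difference of 0.42 and an exact two-sided permutation p of 0.1. Leaving out each sample in turn moved that difference between 0.38 and 0.46.

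**Figure D3:**
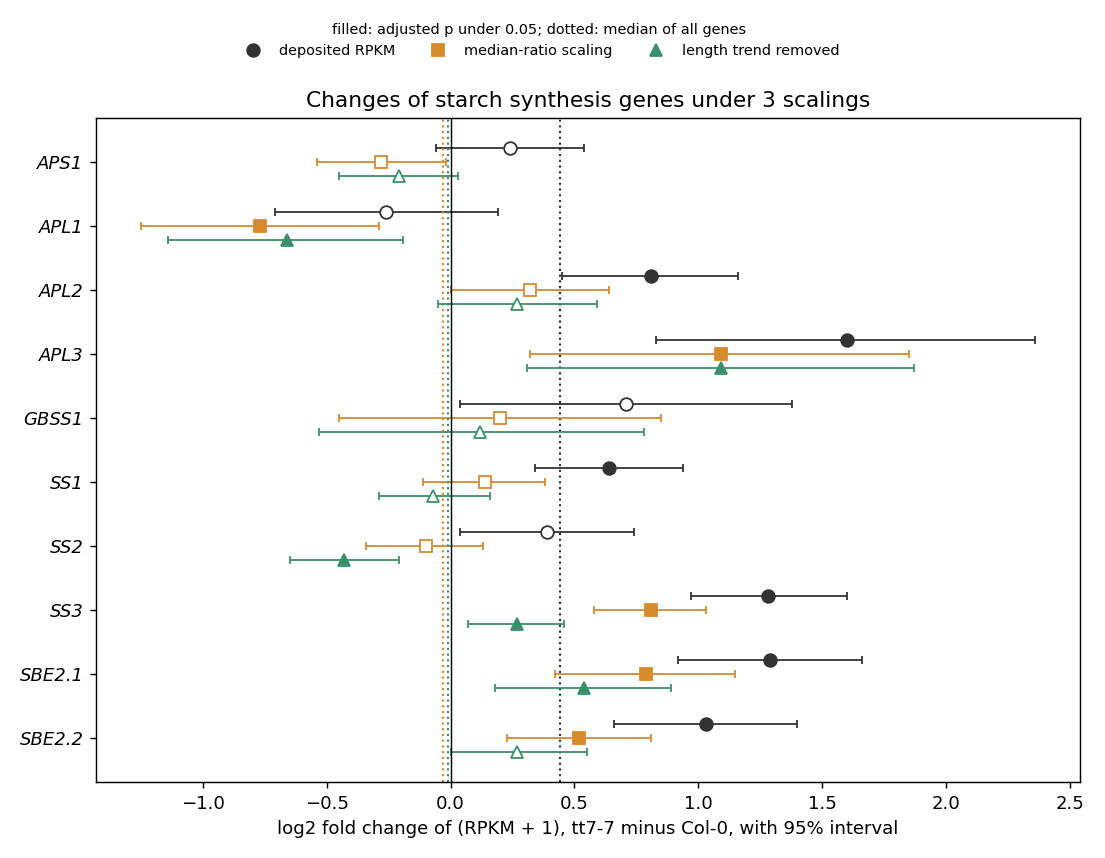
Log2 fold change of RPKM + 1, tt7-7 minus Col-0, of each gene with its 95% interval, for the deposited RPKM, under median-ratio scaling and with the length trend removed; filled symbols passed the limma threshold and dotted lines mark the median of all genes (0.44, -0.03 and -0.01). APL3, SS3 and SBE2.1 have filled symbols right of 0 in all 3 versions, whereas APS1, SS1 and SS2 each lie left of 0 in at least 1 version and APL1 in all 3.

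The 250 bases before the annotated start of each gene were searched for plant promoter motifs that are known from light, seed and sugar regulation. The following 4 are shown because they belong to APL3, SS3 and SBE2.1, the members called higher in every alternative, and to SS1, the remaining gene with a G-box. Sequences are from RefSeq's TAIR10.1, read 5' to 3' on the plus strand, with motifs in capitals.
APL3 chr4:18259297-18259546: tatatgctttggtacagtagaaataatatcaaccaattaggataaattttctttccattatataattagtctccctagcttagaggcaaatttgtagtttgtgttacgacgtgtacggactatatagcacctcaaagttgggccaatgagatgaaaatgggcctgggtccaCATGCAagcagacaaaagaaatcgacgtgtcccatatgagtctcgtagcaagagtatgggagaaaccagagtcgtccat
SS3 chr1:3951116-3951365: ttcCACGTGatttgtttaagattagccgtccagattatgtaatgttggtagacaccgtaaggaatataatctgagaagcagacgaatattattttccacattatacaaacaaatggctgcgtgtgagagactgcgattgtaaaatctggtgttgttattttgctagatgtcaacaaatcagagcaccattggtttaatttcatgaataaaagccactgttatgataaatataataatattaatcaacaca
SBE2.1 chr2:15263961-15264210: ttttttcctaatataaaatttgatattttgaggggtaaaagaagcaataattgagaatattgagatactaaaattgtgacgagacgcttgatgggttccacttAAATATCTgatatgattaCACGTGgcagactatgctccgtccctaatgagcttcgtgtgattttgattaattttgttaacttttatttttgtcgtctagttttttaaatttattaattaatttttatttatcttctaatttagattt
SS1 chr5:8266316-8266565: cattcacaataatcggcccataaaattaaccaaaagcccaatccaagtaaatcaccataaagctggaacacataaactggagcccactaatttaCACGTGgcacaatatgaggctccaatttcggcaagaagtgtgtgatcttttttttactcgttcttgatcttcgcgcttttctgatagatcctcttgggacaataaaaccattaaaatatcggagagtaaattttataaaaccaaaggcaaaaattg
The G-box CACGTG, its own reverse complement, was found in 3 of the 10 promoters, starting at -247 in SS3, -129 in SBE2.1 and -156 in SS1, with -1 the base before the gene start. It was found in 7.63% of the 16856 promoters of table genes with an annotated start. All 3 genes were called higher in the main test, beside 51.1% of all tested genes, but APL2, APL3 and SBE2.2 were too and had no G-box in this window. The call of SS1 was lost under median-ratio scaling and with the length or the GC trend removed. Whether the motif bears on these levels was not tested. The RY core CATGCA, searched on both strands like the rest, was found in APL1 at -18 and APL3 at -79, and in 7.4% of the promoters. The evening element AAATATCT was found in SBE2.1 at -147 and in 5.05% of the promoters. The I-box GATAAG and the sugar-responsive element AATAGAAAA were found in SS2 alone among the 10, at -243 and -193 on the opposite strand, and in 12.4% and 2.53% of the promoters. APS1, APL2, GBSS1 and SBE2.2 held none of these letters in the window.

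The rest of the pathway was described with lists of 41 further genes. Among 13 other genes of synthesis and granule initiation, limma called 10 higher and 0 lower, beside 51.1% and 8.47% of all tested genes. The median log2 fold change of the 13 was 0.76. At an unadjusted p under 0.05 in the same fit 11 were higher and 0 lower (54.6% and 9.83% of all genes), and voom called 10 higher and 0 lower (51.3% and 7.92% of all genes). Under median-ratio scaling 6 were higher and 1 was lower, beside 26.3% and 27.6% of all genes. ISA1 (AT2G39930), a debranching enzyme that trims amylopectin as it forms, had 13.8, 14.2 and 15.8 RPKM in tt7-7 replicates 1 to 3, against 5.93, 5.41 and 5.32 RPKM in Col-0 replicates 1 to 3. Its groups were far apart, with a log2 fold change of 1.25 (limma adjusted p = 0.000129) and a range of 0.47 to 1.39 over the alternatives.

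APL4 (AT2G21590), another large subunit of ADP-glucose pyrophosphorylase, had 15.7, 15.5 and 11.7 RPKM in tt7-7, against 6.74, 6.99 and 3.36 RPKM in Col-0, a log2 fold change of 1.23 (limma adjusted p = 0.00203). Replicate 3 was the lowest in both genotypes and the groups did not overlap. With the length trend removed the value was 0.54 and not called (limma adjusted p = 0.0642). AT1G42430, AT5G65685, AT1G27070 and AT3G20440 had log2 fold changes of 1.15, 0.98, 0.93 and 0.79 (limma adjusted p = 0.00105, 0.000503, 0.000495 and 0.0027). Their groups did not overlap, but with the length trend removed AT5G65685 stood at 0.30 and AT3G20440 at -0.09, neither of them called (limma adjusted p = 0.118 and 0.581). AT3G20440 was also not called under quantile normalization, at 0.21, or with the GC trend removed, at 0.26.

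Of 7 genes that supply precursors, limma called 3 higher and 0 lower, beside 51.1% and 8.47% of all tested genes. The median log2 fold change of the 7 was 0.41. At an unadjusted p under 0.05 in the same fit, 3 were higher and 1 lower, beside 54.6% and 9.83%. Voom called 3 higher and 0 lower, beside 51.3% and 7.92%. Under median-ratio scaling 1 was higher and 3 were lower, beside 26.3% and 27.6%. GPT1 (AT5G54800), which carries glucose 6-phosphate into plastids, had 38.7, 42.1 and 37.2 RPKM in tt7-7 replicates 1 to 3, against 23.4, 22.7 and 19.6 RPKM in Col-0 replicates 1 to 3. All tt7-7 samples lay above Col-0, and the log2 fold change of 0.82 (limma adjusted p = 0.000751) stayed past the threshold in all 19 alternatives. The plastid enzymes PGI1 (AT4G24620) and PGM1 (AT5G51820), which interconvert the hexose phosphates ahead of ADP-glucose, both had log2 fold changes of 0.41 (limma adjusted p = 0.0203 and 0.0186). These turned to -0.10 for PGI1 and -0.09 for PGM1 under median-ratio scaling, and the calls were lost. Both calls were also lost with the length or the GC trend removed, and that of PGM1 under quantile normalization. The call of PGI1 was also lost without tt7-7 replicate 1 (0.38, limma adjusted p = 0.0732) or replicate 3 (0.39, adjusted p = 0.0535), and that of PGM1 without tt7-7 replicate 2 (0.36, adjusted p = 0.0885).

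Of 20 breakdown genes, limma called 12 higher and 2 lower, beside 51.1% and 8.47% of all tested genes. The median log2 fold change of the 20 was 0.56. At an unadjusted p under 0.05 in the same fit, 13 were higher and 2 lower, beside 54.6% and 9.83%. Voom called 12 higher and 2 lower, beside 51.3% and 7.92%. Under median-ratio scaling 5 were higher and 5 were lower, beside 26.3% and 27.6%. ISA3 (AT4G09020), a debranching enzyme of starch breakdown, had 67.4, 83.0 and 52.6 RPKM in tt7-7 replicates 1 to 3, against 16.2, 19.0 and 13.9 RPKM in Col-0 replicates 1 to 3. This log2 fold change of 1.97 (limma adjusted p = 0.000111) was the highest in the 3 lists, and the groups were far apart. GWD1 (AT1G10760), which phosphorylates starch so that it can be degraded, had 43.7, 65.1 and 37.2 RPKM in tt7-7, against 16.5, 17.9 and 12.9 RPKM in Col-0 (log2 fold change 1.54, limma adjusted p = 0.000393). With the length trend removed, its log2 fold change was 0.26 and not called.

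The phosphatase SEX4 (AT3G52180), the limit dextrinase PU1 (AT5G04360) and the plastid phosphorylase PHS1 (AT3G29320) had log2 fold changes of 1.18, 1.14 and 0.98 (limma adjusted p = 0.00026, 0.000347 and 0.000794), and the groups of each did not overlap. With the length trend removed PU1 stood at 0.19 (limma adjusted p = 0.331) and PHS1 at 0.11 (adjusted p = 0.51), neither of them called, whereas SEX4 was still called higher, at 0.75. In contrast, BAM3 (AT4G17090), the beta-amylase that releases maltose in chloroplasts, had 27.8, 49.0 and 45.0 RPKM in tt7-7 replicates 1 to 3, against 63.8, 70.2 and 95.1 RPKM in Col-0 replicates 1 to 3. Its log2 fold change was -0.91 (limma adjusted p = 0.00805), and it was called lower in all 19 alternatives. The other gene called lower, named after its values were seen, was the plastid glucose transporter GLT1 (AT5G16150), at -0.41 (limma adjusted p = 0.0255). That call was lost without any 1 tt7-7 replicate, at -0.42, -0.40 and -0.40 (limma adjusted p = 0.062, 0.0821 and 0.0555), and without Col-0 replicate 2, at -0.34 (adjusted p = 0.114). The green tissue markers, which were also lower, are given above, and their part in these values was not tested.

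**Figure D4:**
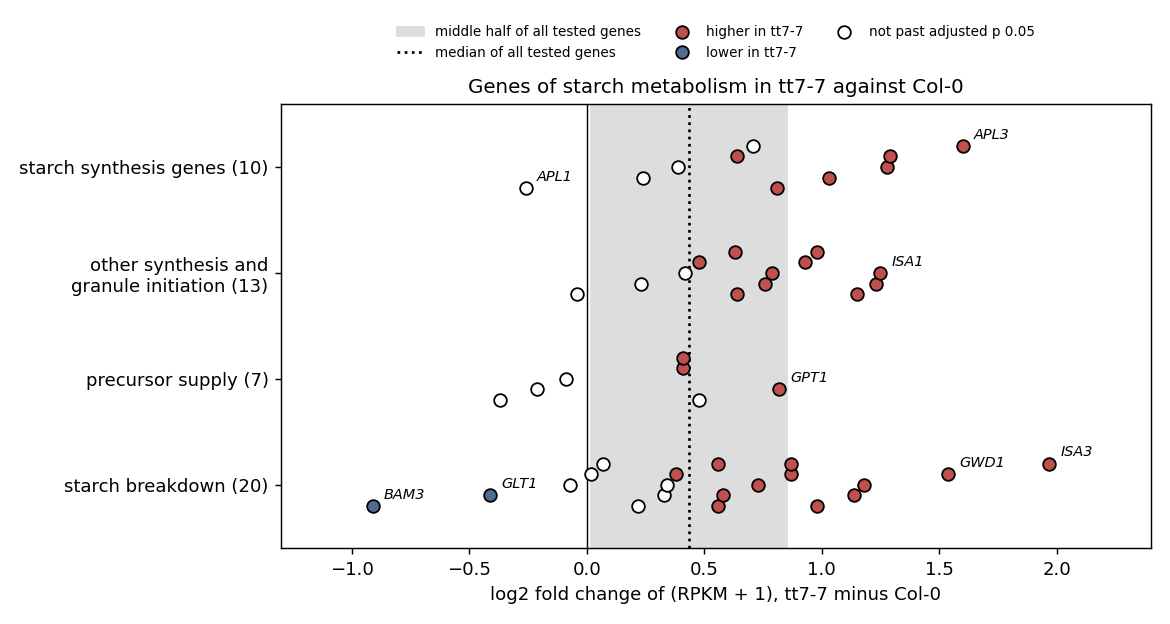
Log2 fold change of RPKM + 1, tt7-7 minus Col-0, of each gene of the 4 lists (numbers of genes in brackets; vertical scatter has no meaning), coloured by limma call, with the quartile band and the median (0.44) of all tested genes. Of the 10 starch synthesis genes 6 are called higher, and the 2 genes called lower, BAM3 and GLT1, are both in the breakdown list.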

How the data were processed

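RNA was extracted from whole seeds of 3 tt7-7 and 3 Col-0 samples, treated with DNase and made into Illumina libraries, per the labels' protocols. The authors deposited 1 table of RPKM values for 16967 genes, written with decimal commas. Each of them reached 2 RPKM in all samples of at least 1 genotype. The submitters' processing notes name cutadapt, FastQC, HISAT2, HTSeq, DESeq2 and TAIR10, without versions or roles. Poly(A) selection and strandedness were not given in the sources used here.

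Multiplied by the length of the longest RefSeq transcript (TAIR10.1), deposited values rose in steps of whole reads, which gave library totals and reads. For 16855 genes, 99.34% of those listed, every sample then had a whole number of reads to within 0.02. Each member had 326 to 8139 reads per sample.

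The main test was limma 3.58.1 (R 4.3.3) on log2(RPKM + 1) with a trended prior, all 6 samples and no covariate. Genes with a mean under 2 RPKM, 304 in all, were left out. Two-sided p-values were adjusted by the Benjamini-Hochberg method over 16663 genes at a threshold of 0.05. Ratios within samples were compared with exact permutation tests. Named genes were the 10 members and, from each of 3 pathway lists, up to 6 genes past the threshold whose groups did not overlap, by size of log2 fold change. The members and lists were chosen with earlier results of these data known. Settings tried per gene numbered 19. No label says that a replicate number marks a shared batch, so the main test did not pair the samples. Chi-square statistics per degree of freedom between replicates were 22.4 to 163, so no library was a duplicate. The fit was run on simulated data with a small set of changed genes. The simulation had no shift over all genes, so it did not test the scalings. APS2 and AGL62 were not analysed here. Python 3.11.15 with pandas 2.3.3, numpy 2.4.6, scipy 1.17.1 and matplotlib 3.10.9 was used for the rest.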

Additional observations from a re-analysis of the deposited data

How the results depend on the processing

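Of the 10 members, APL3, SS3 and SBE2.1 kept their direction and call in all 19 alternatives. The share of all tested genes that did so was not counted, so this count has no background beside it. APS1 turned to -0.28 under median-ratio scaling, -0.21 without the length trend and -0.28 without the GC trend, and was called higher under quantile normalization, at 0.41 (limma adjusted p = 0.0152). SS2 turned to -0.10, -0.43 and -0.06 under the same settings and to -0.06 under quantile normalization, and SS1 turned to -0.07 with the length trend removed. The cause was not tested.

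Counts over all genes called higher were 4389 under median-ratio scaling, 4468 under quantile normalization, 3751 without the length trend, 4423 without the GC trend and 4351 at a mean of at least 10 RPKM, which leaves fewer genes to test. The counts called lower were 4596, 3576, 3853 and 4388 under the first 4 of these and 2466 with sample weights, whose estimation did not converge. Members called higher numbered 3 without the length trend. Members called lower numbered 1 under median-ratio scaling, 2 without the length trend, 1 without the GC trend, and 0 to 1 when a sample was left out.

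Precursor genes called higher numbered 1 under median-ratio scaling and without the length or the GC trend. Those called lower numbered 3, 2 and 3 under these, 2 when scaled outside the 100 highest genes, 2 with sample weights and 0 to 1 when a sample was left out. For the other synthesis genes, higher calls came to 6 with median-ratio scaling, 5 under quantile normalization, 4 without the length trend, 6 without the GC trend and 5 at the higher minimum, and lower calls numbered 1 under the first 4. AT5G65685, AT3G20440, AT1G27070, AT5G39790 and AT3G55760 lay below the higher minimum and were not tested there, so that count is over fewer genes. For breakdown, higher calls numbered 5, 2 and 5 under median-ratio scaling and without the length or GC trend. Lower calls there numbered 5, 6 and 6, with 4 under quantile normalization and 1 to 2 when a sample was left out.

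Trends were removed from the ratios as alternatives chosen after seeing the data. The log2 difference of the summed members, 0.64, ranged from 0.55 to 0.73 when a sample was left out and was 0.12 under median-ratio scaling, also tried after seeing the data. The log2 difference of the SS3 share moved to 0.40 without the length trend and 0.58 without the GC trend, and that of the SS1 share to 0.04 without the length trend. Deviations of same-numbered samples from their group means had correlations of 0.212, -0.19 and 0.477. These do not settle whether a number marks a shared batch, and the main test did not take the numbers as pairs. With the replicate number as a block, 7 members were called higher, with GBSS1 added (limma adjusted p = 0.00286), and 8587 genes were higher and 1583 lower over the whole table.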
